A study of Mus musculus with 8 samples.

Results

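The 7 genes described here encode potassium channels of the calcium-activated family and their auxiliary subunits: Kcnma1, Kcnmb2, Kcnmb4, Kcnn1, Kcnn2, Kcnn3 and Kcnt1. They were taken by name, as all probe sets of the values table that named exactly 1 of them, which gave 144 of 391597 probe sets, and 137 of the 144 passed the filter on low values. The arrays measured total RNA from cortex of the CD1 strain, taken at postnatal day 10, in 4 wild type and 4 Nova2 knockout (Nova2 KO) animals with 1 exon array each. Nova2 binds RNA in neurons and steers which exons are spliced in, and the comparison asks what changes in expression and in exon usage without it. The sources used here do not say how the Nova2 allele was made, and strain, age and tissue were the same in both groups.

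Calcium-activated potassium channels open when calcium rises inside the cell and let potassium out, which brings a neuron back towards rest. BK channels, with Kcnma1 as the pore, also sense voltage and speed the repolarisation of the action potential, and their gene is known for many alternative exons. SK channels, built from Kcnn1, Kcnn2 and Kcnn3, sense calcium through bound calmodulin and carry a slower afterhyperpolarisation. Kcnt1 belongs to the same wider family by sequence, but its channel (Slack) is opened by intracellular sodium, so the family name does not describe its gating.

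An exon array carries several probe sets along a gene. For each array, the median log2 signal over a gene's kept probe sets served as its gene value, and the exon-level index was a probe set's log2 signal after subtracting that gene value. A probe set was kept where its mean over the 8 arrays was above 5.86 log2, the 25th percentile of all probe sets. Which exon a probe set lies in was not analysed here, so probe sets are named by their number. Signals of different probe sets depend on their sequences, and levels were therefore not ranked between genes.

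Array medians ran from 7.02 to 7.37 log2, and the lowest of each group were those of wild type 4 (7.02) and Nova2 KO 4 (7.06). Of 16 kept probe sets of Nova2, 10 were higher and 6 lower in Nova2 KO. Probe set 5294108, named after its values were seen, lay between 8.53 and 8.87 log2 in wild type and between 6.28 and 7.26 log2 in Nova2 KO. The groups did not overlap there, but its adjusted p over all kept probe sets was 0.0786 (limma). Probe sets 4414499 and 4355944 were apart in the other direction, by 0.70 and 0.40 log2 (limma adjusted p = 0.321 and 0.700). The Nova2 gene value differed by -0.016 log2 (SE 0.11).

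The BK pore gene Kcnma1 held the 1 probe set of the family that passed the test of exon usage. Its probe set 5193338 fell by 1.15 log2 in index, with wild type 2.22-fold above Nova2 KO (SE 0.098, 95% interval -1.37 to -0.93, n = 4 per group, limma adjusted p = 0.0147 over all 195014 probe sets tested). Probe set 4972911 of the same gene lay in the other direction, at 0.92 log2, and did not pass. The gene value of Kcnma1 differed by -0.17 log2 and did not pass. None of the other 6 genes had a called probe set or a called gene value.

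The signal of probe set 5193338 was 9.02, 9.33, 9.29 and 9.05 log2 on wild type arrays 1 to 4. On Nova2 KO arrays 1 to 4 it was 8.01, 7.92, 8.05 and 7.43 log2. All 4 Nova2 KO arrays thus lay below all 4 wild type arrays, with Nova2 KO 4 the lowest. On the index scale the wild type arrays lay at -0.90, -0.91, -0.91 and -0.78 log2, with a mean of -0.87 ± 0.06 (SD, n = 4). The Nova2 KO arrays lay at -1.86, -2.06, -1.97 and -2.21 log2, with a mean of -2.03 ± 0.15 (SD, n = 4). The probe set was thus dimmer than the median of its gene in both groups, and further below it in Nova2 KO. Its signal in Nova2 KO, with a mean of 7.85 log2, stayed above the filter value.

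By its unadjusted p of 1.13e-06, probe set 5193338 took rank 15 of 195014 in exon usage. Over all probe sets tested, 26 passed, a share of 0.0133%, and 15 of these were lower in Nova2 KO (0.00769%). Of the 137 probe sets of the 7 genes, 1 passed. Kcnma1 was also the 1 member of 7 that passed by the Simes p over its probe sets (adjusted p = 0.0289), where 0.161% of 11187 genes passed. That call was lost without any single array, without both arrays numbered 4 and without the filter. It was also lost with the array median as a covariate, an intensity trend or the replicate number as a block. Over all genes, 18 passed by Simes p as reported, and 0 to 13 passed without single arrays. Without both arrays numbered 4 it was 0, and without the filter 11. With the covariate 13 genes passed, with the trend 23 and with the block 3. As plain signal, the probe set differed by -1.32 log2 (SE 0.17) with a limma adjusted p of 0.0975 over all kept probe sets. No member probe set passed there with limma, against a background of 0.00681%, while 11 of 137 had an unadjusted p under 0.05, against 6.68%.

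The size of the index difference moved little between settings, from -1.23 to -1.06 log2, but the call did not hold in 10 of 20 other settings. Leaving out any wild type array ended it, with limma adjusted p of 0.107, 0.0873, 0.0928 and 0.0746 without arrays 1, 2, 3 and 4. Leaving out Nova2 KO 2, 3 or 4 ended it as well, with adjusted p of 0.083, 0.0733 and 0.0509. Without Nova2 KO 1 it held, at 0.0442. Without both arrays numbered 4 the adjusted p was 0.192, and with an intensity trend in the variance it was 0.0591. With the replicate number as a block the adjusted p was 0.268, the largest of these. Over all probe sets, 26 passed as reported, 10 to 16 without single arrays, 2 without both arrays numbered 4 and 4 with the block. With the trend 28 passed.

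**Figure D1:**
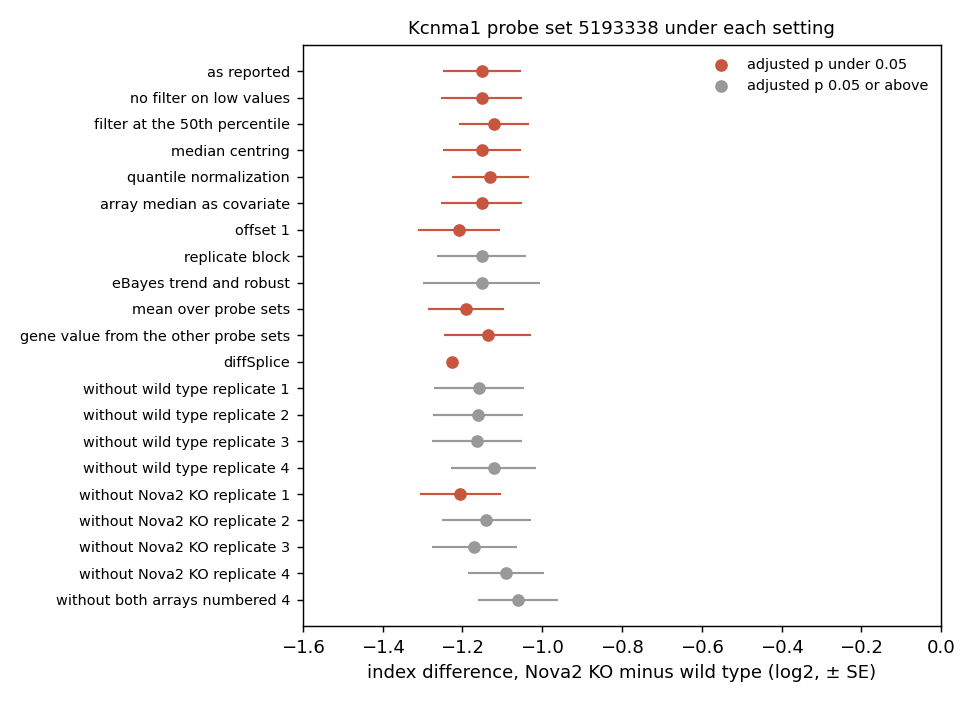
Index difference of Kcnma1 probe set 5193338 (log2, Nova2 KO minus wild type; x axis, with bars of 1 SE where the method gives one) under each processing setting (y axis). All points lie between -1.23 and -1.06 log2, and the grey ones are the 10 settings in which the adjusted p was not under 0.05.

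Probe set 4972911 of Kcnma1 is named after its values were seen. Its signal was 7.77, 8.35, 8.30 and 7.38 log2 on wild type arrays 1 to 4 and 8.65, 9.03, 8.80 and 8.29 log2 on Nova2 KO arrays 1 to 4. The groups overlapped slightly in signal, since Nova2 KO 4 lay below wild type 2 and 3. In the index they did not overlap, with wild type between -2.46 and -1.89 log2 and Nova2 KO between -1.35 and -0.95 log2. The index difference was 0.92 log2 (SE 0.15, 95% interval 0.58 to 1.25), 1.89-fold, with a limma adjusted p of 0.297. It passed in 2 of 20 other settings, with the array median as a covariate (adjusted p = 0.0435) and with diffSplice (adjusted p = 0.00652), which pools the spread over a gene. Over all probe sets, 28 passed with that covariate and 506 with diffSplice, against 26 as reported.

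**Figure D2:**
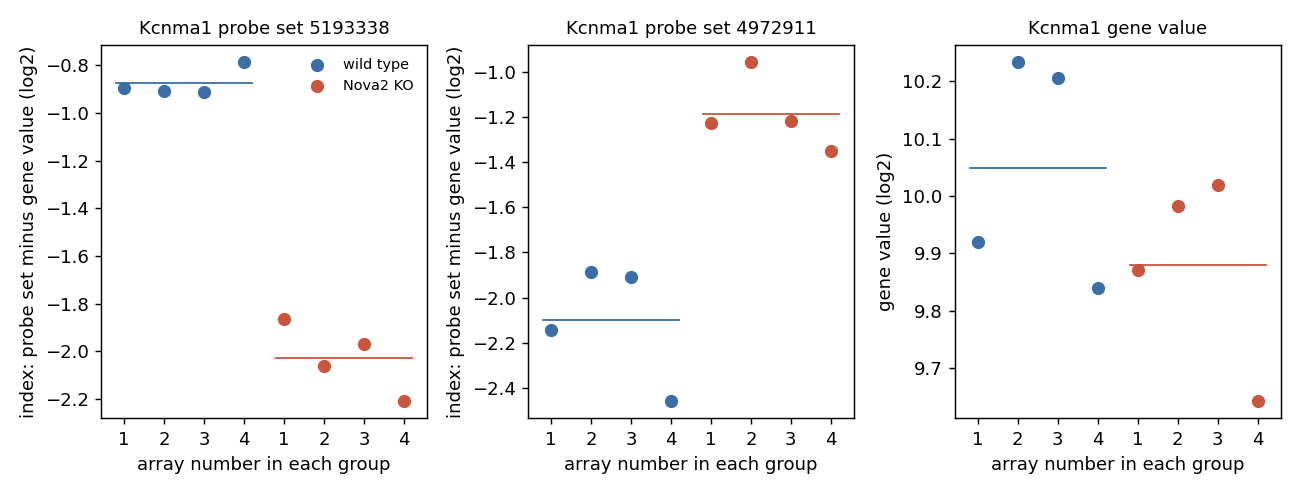
Exon-level index of Kcnma1 probe sets 5193338 and 4972911 and the Kcnma1 gene value on each array (y axes, log2; x axis, array number in each group; lines, group means; each panel has its own scale). The groups are apart in both index panels, in opposite directions, and overlap in the gene value.

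The rest of Kcnma1 moved little. All 35 of its probe sets passed the filter, with wild type means between 6.28 and 11.32 log2. In signal 31 of the 35 were lower and 4 higher in Nova2 KO, with a median difference of -0.14 log2. Relative to the gene, 3 of 35 differed by more than 0.5 log2, which were 5193338, 4972911 and 4520944 (0.59 log2, groups overlapping). The groups did not overlap in index for 3 of 35 (8.57%), against 4.12% of all probe sets tested. The third of these was 5451525, also named after its values were seen, at 0.44 log2 (SE 0.13, limma adjusted p = 0.623). The probe sets 5193338, 4972911 and 5451525 took ranks 29, 32 and 31 of 35 by wild type signal, so they were among the dimmer of the gene.

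**Figure D3:**
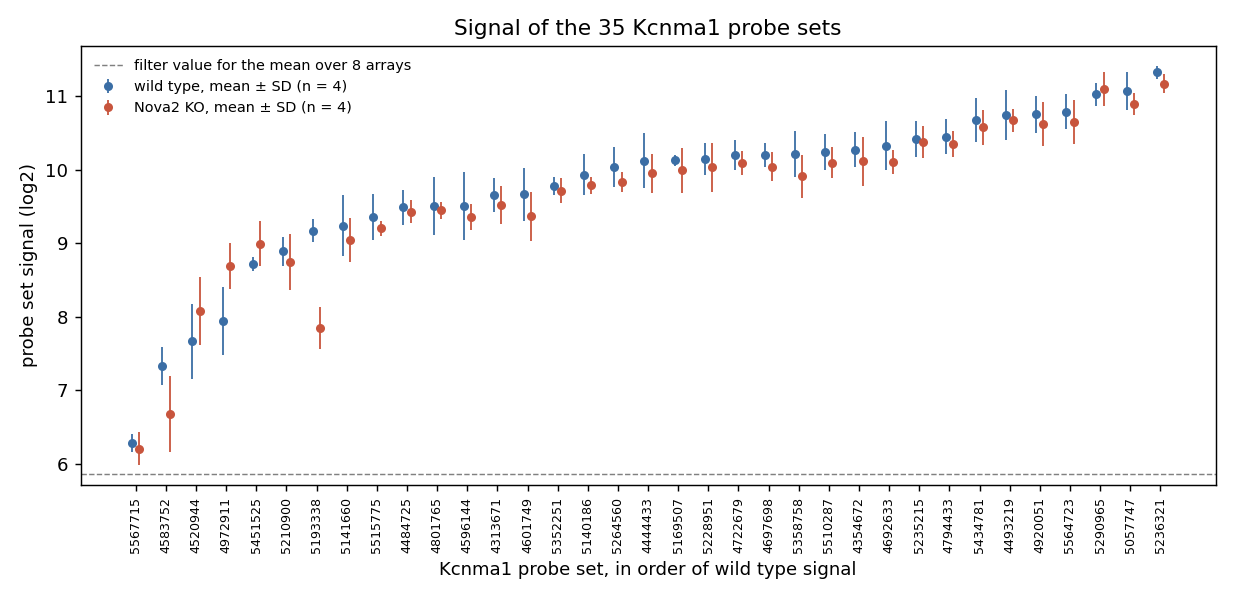
Signal of the 35 Kcnma1 probe sets (y axis, log2; mean ± SD of 4 arrays per group) in order of their wild type signal (x axis), with the filter value as a dashed line. Most pairs of points lie close together with Nova2 KO slightly lower, 5193338 lies 1.32 log2 lower in Nova2 KO, and 4972911 lies 0.74 log2 higher.

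The Kcnma1 gene value was 9.92, 10.23, 10.20 and 9.84 log2 on wild type arrays 1 to 4 and 9.87, 9.98, 10.02 and 9.64 log2 on Nova2 KO arrays 1 to 4. The groups overlapped, and the array numbered 4 was the lowest of each. The difference was -0.17 log2 (SE 0.12, 95% interval -0.44 to 0.10, limma adjusted p = 0.632). The interval held 0, so with 4 arrays per group the Kcnma1 gene value could not be told apart between the groups.

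The auxiliary subunits of BK are Kcnmb4, the main one of neurons, and Kcnmb2, which makes BK currents inactivate. For Kcnmb4 the gene value lay between 10.16 and 10.26 log2 in wild type and between 10.23 and 10.34 log2 in Nova2 KO. It had the narrowest spread of the 7 genes, with an SD of 0.045 log2 among wild type arrays and of 0.051 log2 among Nova2 KO arrays. The difference was 0.083 log2 (95% interval -0.11 to 0.27, limma adjusted p = 0.761). Of its 7 probe sets 5 were kept, and on every array their median was the signal of probe set 5333456, named after its values were seen. The narrow spread is therefore that of 1 probe set. Among Nova2 KO arrays the SD was 0.31 log2 for probe set 5057237 and 0.37 log2 for 4962739. The Kcnmb2 gene value lay between 6.96 and 7.38 log2 in wild type and between 7.12 and 7.44 log2 in Nova2 KO, a difference of 0.092 log2 (95% interval -0.16 to 0.35, limma adjusted p = 0.809). In exon usage the probe set with the lowest p was 4685100 for Kcnmb2 (0.34 log2, SE 0.17, limma adjusted p = 0.759). For Kcnmb4 it was 4962739 (-0.16 log2, SE 0.17, limma adjusted p = 0.883), whose difference was 0.0030 log2 without Nova2 KO 4. In neither gene did the groups separate for any index.

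Among the SK channel genes, Kcnn1 (SK1) was the 1 member whose gene values did not overlap between the groups. The gene value was 8.52, 8.34, 8.69 and 8.37 log2 on wild type arrays 1 to 4. On Nova2 KO arrays 1 to 4 it was 8.12, 8.30, 7.92 and 8.17 log2. All 4 Nova2 KO values lay below all 4 wild type values, with Nova2 KO 2 closest to wild type. The difference was -0.35 log2 (SE 0.12, 95% interval -0.60 to -0.10, wild type 1.28-fold above Nova2 KO), and it did not pass over all 11992 genes (limma adjusted p = 0.283). Gene values did not overlap for 7.56% of all genes tested, 2.50% with Nova2 KO lower. In all of 18 other settings the Kcnn1 difference stayed below 0, between -0.41 and -0.25 log2, without a call.

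Most kept probe sets of Kcnn1 lay on the same side, but their median is the gene value, so they are no separate test of it. In signal 17 of its 20 kept probe sets lay lower in Nova2 KO, at a median difference of -0.21 log2, and 5 had an unadjusted p under 0.05, against 6.68% of all kept probe sets. The probe set with the lowest index p was 4756353 (0.37 log2, SE 0.13, limma adjusted p = 0.688). Its own signal differed by 0.020 log2, from 6.76 ± 0.08 to 6.78 ± 0.18 log2 (SD, n = 4), and its index thus followed the lower gene value. The signal difference was -0.063 log2 without Nova2 KO 2 and -0.016 log2 without wild type 1.

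Kcnn2 (SK2) had a gene value between 8.52 and 8.98 log2 in wild type and between 8.55 and 9.26 log2 in Nova2 KO. The difference was 0.089 log2 (95% interval -0.23 to 0.41, limma adjusted p = 0.859), and its sign turned without wild type 4 (-0.002 log2), without Nova2 KO 3 (-0.035 log2) and with the filter at the 50th percentile (-0.075 log2). Its probe set 5512901 was dim, at 5.45, 6.04, 6.13 and 5.32 log2 in wild type and 6.38, 6.19, 6.49 and 6.61 log2 in Nova2 KO. The signals did not overlap, but the wild type mean of 5.74 log2 was under the filter value, and the probe set was kept through its Nova2 KO arrays. Its index differed by 0.59 log2 (SE 0.16, limma adjusted p = 0.608). For Kcnn3 (SK3) the gene value lay between 8.12 and 8.44 log2 in wild type and between 7.95 and 8.37 log2 in Nova2 KO, a difference of -0.11 log2 (95% interval -0.39 to 0.17, limma adjusted p = 0.791). Its probe set with the lowest index p, 4737371, differed by -0.26 log2 (SE 0.14, limma adjusted p = 0.777).

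The sodium-activated channel gene Kcnt1 had the widest spread of the 7. Its gene value was 8.58, 9.07, 8.78 and 8.11 log2 on wild type arrays 1 to 4 and 8.53, 8.78, 8.80 and 7.96 log2 on Nova2 KO arrays 1 to 4. The arrays numbered 4, which were also those with the lowest medians, lay below the others in both groups. The difference was -0.12 log2 (SE 0.21, 95% interval -0.58 to 0.35, limma adjusted p = 0.872). Leaving out wild type 2 gave 0.026 log2 and leaving out Nova2 KO 4 gave 0.068 log2, so its direction rested on single arrays. Probe set 4704387 of Kcnt1 lay at 6.88, 6.86, 7.19 and 5.85 log2 in wild type and at 7.36, 7.37, 7.21 and 7.45 log2 in Nova2 KO. The groups did not overlap, with wild type 3 just below Nova2 KO 3 and wild type 4 far below the rest. Its index differed by 0.77 log2 (SE 0.25, limma adjusted p = 0.667).

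**Figure D4:**
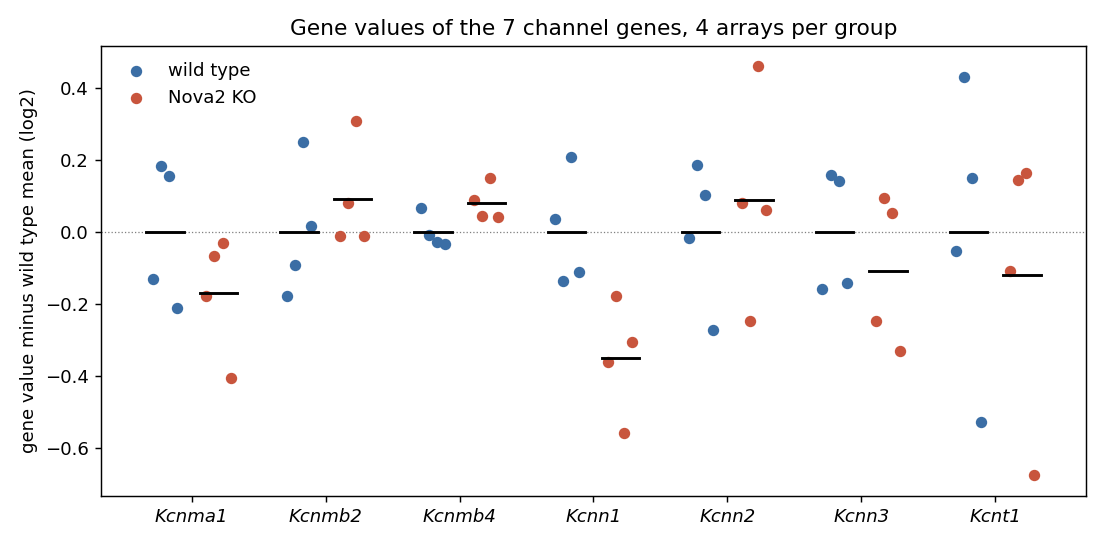
Gene value of each of the 7 genes on each array, as the difference from the wild type mean of that gene (y axis, log2; points, arrays 1 to 4 of each group from left to right; bars, group means). The groups overlap for every gene but Kcnn1, and Kcnt1 spreads the most.

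Taken as a list, the 7 genes were near the background. At the gene level 0 of 7 passed with limma, against 0.208% of all genes, 1 of 7 had an unadjusted p under 0.05, against 11.6%, and the median difference was -0.11 log2 beside 0.022 log2 over all 11992 genes. In exon usage 11 of 137 probe sets (8.03%) had an unadjusted p under 0.05, against 6.76% of all probe sets. The groups did not overlap for 6 of 137 (4.38%), against 4.12%. Differences over 0.5 log2 made up 3.65% of the members' probe sets and 2.75% of all. Outside Kcnma1, the 102 probe sets of the other genes lay between -0.41 and 0.77 log2, and the lowest adjusted p among them was 0.608.

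**Figure D5:**
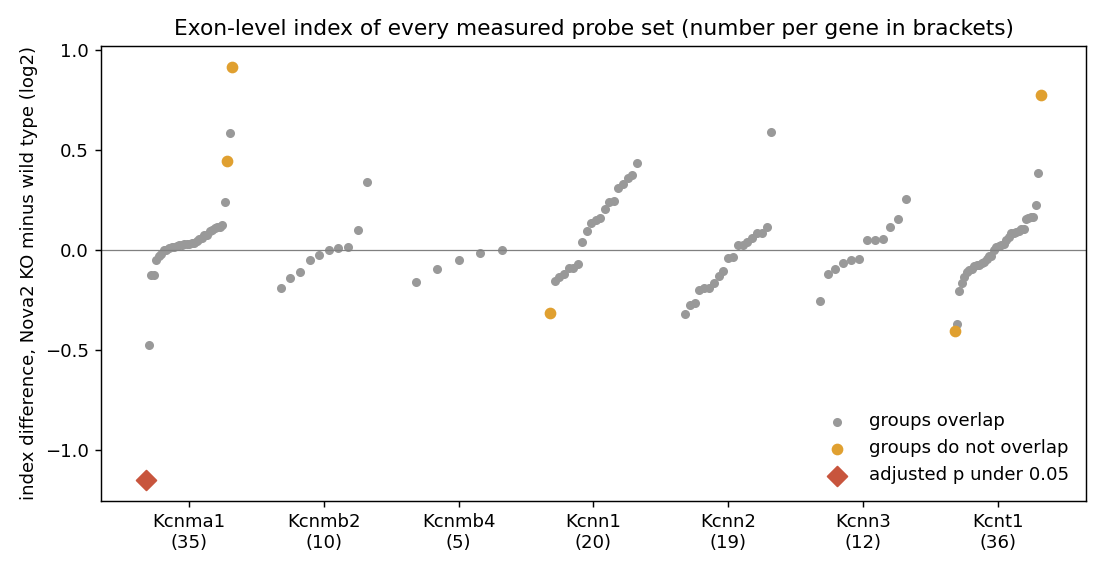
Index difference of each of the 137 measured probe sets (y axis, log2, Nova2 KO minus wild type), grouped by gene and sorted within it (x axis). The diamond is Kcnma1 probe set 5193338 at -1.15 log2, and the orange points are those whose groups do not overlap without a call.

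Across the 8 arrays, the gene values of Kcnma1, Kcnn3 and Kcnt1 ran alike: the member most like Kcnn3 was Kcnma1 (Pearson r = 0.92), and the member most like Kcnt1 was also Kcnma1 (r = 0.91). All 3 were lowest on Nova2 KO 4, the array with the lowest median of its group. Of 11991 other genes, those most like each member were Dennd4a for Kcnma1 (r = 0.98), Cobll1 for Kcnmb2 (r = 0.96), Rab35 for Kcnmb4 (r = 0.97) and Dhodh for Kcnn1 (r = 0.98). For Kcnn2 it was Nedd4l (r = 0.96), for Kcnn3 Otulinl (r = 0.99) and for Kcnt1 Dennd6b (r = 0.98). These are descriptions over 8 arrays that share brightness and group, each the highest of many. In other settings the correlation dropped to as little as 0.013 for Kcnmb2 with Cobll1, 0.42 for Kcnn1 with Dhodh, 0.59 for Kcnmb4 with Rab35 and 0.70 for Kcnn2 with Nedd4l.

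Other genes of the pathway were counted from a list of 38, of which 30 had a gene value. One of the 30 passed at the gene level, against 0.208% of all genes: Itpr1, an IP3 receptor through which stored calcium leaves the endoplasmic reticulum, fell by 1.12 log2 (SE 0.13, limma adjusted p = 0.00574). Calcium sources, which are the calcium channels, ryanodine receptors, Grin1 and Itpr1, were lower in 12 of 13 genes (1 called), with a median of -0.18 log2, where 5351 of all 11992 genes were lower. The groups overlapped for each of the 13 but Itpr1, and the array numbered 4 was the lowest of each group in all 13. The voltage-gated calcium channel Cacna1i was at -0.27 log2, without a call (-0.14 log2 without Nova2 KO 4). The bound partners and regulators were split, 5 higher and 5 lower, with 0 of 10 past the threshold with limma and 3 at an unadjusted p under 0.05, against 11.6% of all genes. These were the alpha-actinin gene Actn2 (-0.46 log2, adjusted p = 0.236), which anchors SK2, the calmodulin gene Calm3 (-0.28 log2, adjusted p = 0.283; 0.098 log2 with the mean over probe sets) and Fmr1 (0.25 log2, adjusted p = 0.304), whose product binds BK and Slack channels. Among further channel subunits 0 of 4 passed with limma, and Kcnmb3, a BK auxiliary subunit, was at -0.38 log2 (unadjusted p = 0.0369, adjusted p = 0.394; -0.20 log2 without wild type 4). The groups overlapped for Kcnmb3, and of its 5 kept probe sets 2 were higher and 3 lower, at a median difference of -0.067 log2. Of the 3 sodium channel genes none passed with limma and none had an unadjusted p under 0.05, and Scn2a was at -0.22 log2.

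In exon usage 1 of 29 pathway genes passed by the Simes p, against 0.161%. It was Grin1, the obligatory NMDA receptor subunit, whose probe set 4423042 rose by 1.29 log2 (SE 0.085, limma adjusted p = 0.00484), from 9.14 ± 0.24 to 10.24 ± 0.22 log2 in signal (SD, n = 4). With any single array left out, the limma adjusted p of this probe set stayed between 0.0245 and 0.0415. Without both arrays numbered 4 it was 0.15. The Simes call of Grin1 was lost there too, and with the replicate number as a block. Leaving out array 1 or 3 of wild type, or array 1 or 4 of Nova2 KO, also ended it. Over all genes, 0, 0, 3 and 1 passed by Simes p in these settings in turn, against 18 as reported. With diffSplice Itpr1 passed by Simes p as well, but 425 of all genes passed there, against 18 as reported. Probe set 4460710 of the sodium channel gene Scn8a was at 0.87 log2 (adjusted p = 0.134), 4401781 of Scn1a at 0.52 log2 (adjusted p = 0.442) and 5198934 of Kcnmb3 at 0.54 log2 (adjusted p = 0.619), none past the threshold. The wild type mean of 4401781, 5.65 log2, was under the filter value, and the probe set was kept through its Nova2 KO arrays. The signal of 5198934 itself differed by 0.16 log2 with overlapping groups, while the Kcnmb3 gene value was at -0.38 log2. For Itpr1, probe set 4951362 had an index difference of 0.94 log2 (adjusted p = 0.187), while its own signal differed by -0.18 log2 and the gene value fell.

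Markers of the cells that a piece of cortex can hold were read beside these values. Markers of pyramidal neurons (5 of 6 measured) had mean gene values between 10.02 and 10.15 log2 in wild type and between 9.99 and 10.19 log2 in Nova2 KO, and those of interneurons also overlapped. Myelin markers (6 of 7 measured) were lower in all 6 genes, between 9.23 and 9.46 log2 in wild type and between 8.55 and 8.98 log2 in Nova2 KO. Of the 6, 2 passed at the gene level, against 0.208% of all genes. Smooth muscle and pericyte markers (3 of 4 measured), from cells that also hold BK channels, lay between 7.96 and 8.08 log2 in wild type and between 7.81 and 7.95 log2 in Nova2 KO, with 1 of the 3 genes higher, 2 lower and none called. The part of these cells in the Kcnma1 and Kcnn1 values was not tested, and in tissue RNA fewer cells of a type and less RNA per cell cannot be told apart. Markers of astrocytes, endothelium, microglia, striatum, thalamus and hippocampus, and Ttr for the choroid plexus, overlapped between the groups, and none of the 3 cerebellar markers was measured.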

How the data were processed

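The deposited values were log2 signals, 1 per array for each of 391597 probe sets, made by the authors with PLIER per the submitters' processing notes (version not given). Background correction, normalization between arrays and the genome build are not given in the sources used here. Values were used as deposited, and their floor at 4 log2 would follow from an offset of 16. The platform annotation named 1 gene for 228454 probe sets, several for 3443 and none for 159700, and 2203 of 13017 symbols were updated through the GRCm38.p6 gene table.

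Filtering left 293697 probe sets. Gene values needed 3 or more kept probe sets and the index 5 or more. Each measure was fitted over the whole table with lmFit and eBayes of limma 3.58.1 in R 4.3.3 (data.table version 1.17.8), as the two-sided difference of Nova2 KO from wild type, and called at a Benjamini-Hochberg adjusted p under 0.05. Simes p gave 1 value per gene. Figures used Python 3.11.15 and matplotlib 3.10.9. The scripts were tested on simulated data. Each array is a separate mouse, and the number of arrays limits the precision.

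Members and lists were chosen with earlier results of these data known. The text names all members, their called probe sets, the probe set with the lowest p of each, pathway genes past the threshold or lowest in p (up to 6 by gene value, up to 4 by exon usage), and the gene most like each member. Others are said to be named after their values were seen.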

Additional observations from a re-analysis of the deposited data

Results flagged for a closer look

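Within the groups of 4 arrays, 84 sets of values were checked for a single array far from the other 3, and 6 had one. Chance gives about 1 in 20. All 6 were arrays numbered 4, which had the lowest medians of their groups.

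For Kcnma1 probe set 5193338 the index of wild type 4 was -0.78 log2, against -0.91 to -0.90 log2 on the other wild type arrays, so it lay farther from the Nova2 KO arrays. For Itpr1 the gene value of wild type 4 was 8.999 log2, against 9.38 to 9.42 log2 on the others. For Kcnmb3 it was 7.23 log2 on wild type 4, against 6.47 to 6.60 log2. The signal of Grin1 probe set 4423042 was 9.92 log2 on Nova2 KO 4, against 10.31 to 10.38 log2, and that of Scn8a probe set 4460710 was 8.38 log2 on Nova2 KO 4, against 8.79 to 8.85 log2. The index of Scn1a probe set 4401781 was -2.25 log2 on Nova2 KO 4, against -2.36 log2 on the other 3.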

How the results depend on the processing

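No member gene passed at the gene level in any setting, and Itpr1 stayed the 1 pathway gene called there. The member probe sets called in exon usage, 1 as reported, numbered 0 with the replicate number as a block, 0 with an intensity trend, 0 without both arrays numbered 4, 2 with the array median as a covariate, 2 with diffSplice and 0 to 1 without single arrays. Over all probe sets, 506 passed with diffSplice and 10 to 16 without single arrays, against 26 as reported. By Simes p, Kcnma1 was not called (0 members) without a filter, with the array median as a covariate, with the block, with the trend, without both arrays numbered 4 or without any single array (0 to 0). Over all genes, 0 to 13 passed by Simes p without single arrays, against 18 as reported. On the signal scale 1 member probe set, 5193338, passed with the filter at the 50th percentile, median centring, quantile normalization, the array median as a covariate and the trend, against 0 as reported. Pathway genes called by Simes p numbered 0 with the block, 0 without both arrays numbered 4 and 0 to 1 without single arrays.

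Arrays of the same title number correlated at 0.14, 0.33, 0.024 and 0.57 between the groups (deviations of gene values). While 3 of 4 wild type arrays correlated best with their own number, number 3 did not, at 0.024. The main fit did not take the numbers as pairs, and whether they mark pairs was not settled. With the replicate block the adjusted p was 0.268 for Kcnma1 probe set 5193338 and 0.155 for Grin1 probe set 4423042.

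Directions turned for Calm3 with the mean over probe sets (0.098 log2), for Kcnn2 with the filter at the 50th percentile (-0.075 log2), and for the signal of Kcnmb4 probe set 4962739 without both arrays numbered 4 (0.059 log2). Single arrays turned Kcnn2 (-0.035 to 0.20 log2), Kcnt1 (-0.29 to 0.068 log2), the index of 4962739 (-0.27 to 0.0030 log2), its signal (-0.18 to 0.099 log2) and the signal of Kcnn1 probe set 4756353 (-0.063 to 0.073 log2), none of them called. The cause was not tested.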
